A study of Saccharomyces cerevisiae with 4 samples.

Results

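The acid and alkaline phosphatases of the budding yeast Saccharomyces cerevisiae were followed in a comparison of transcript levels between 2 strains. The 8 genes are PHO5, PHO11, PHO12, PHO3 and DIA3 of the secreted acid phosphatase family, PHO8 of the vacuole, and PHO13 and PHM8 of the cell interior. They were taken by name from the annotation of the array. Of these 8 genes, 7 had a probe set under their own name, and all 7 were bright enough to be tested among 5332 tested genes of 5449 on the array. PHO12 had none of its own name. The probe set named for PHO11 carries the suffix that Affymetrix gives to probe sets matching several sequences, and PHO11 and PHO12 are near-identical genes, so the signal given for PHO11 may include PHO12 and the pair cannot be told apart.

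The groups were strain X2180, a laboratory strain of the S288C lineage from which the reference genome comes, and strain NBRC1950, a culture collection strain. Each had 2 Affymetrix Yeast Genome 2.0 arrays from independent experiments. Cells of both strains were shaken in YPD, a rich glucose medium, and the labels name no treatment, no engineered allele, no growth phase, no cell density and no ploidy. The series concerns ergosterol and tolerance of vanillin, an inhibitory aromatic aldehyde, and this comparison shows how the strains differ when no vanillin is named.

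Secreted acid phosphatases sit in the space outside the plasma membrane and free inorganic phosphate from organic phosphate esters, which the cell then imports. When phosphate runs low, the inhibitor Pho81 holds back the cyclin-kinase pair Pho80 and Pho85, and the transcription factor Pho4 enters the nucleus and, with Pho2, switches on PHO5, PHO11, PHO12, PHO8, PHM8 and the phosphate transporters. PHO5 is the classic gene of this system, and its enzyme gives most of the acid phosphatase activity of starved cells. PHO3, its neighbour on chromosome II, is regulated by thiamine and not by phosphate, and PHO13 is not known as a phosphate-regulated gene.

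Most of the phosphatase transcripts were lower in NBRC1950. At a Benjamini-Hochberg adjusted p under 0.05 in limma, 5 of the 7 tested genes were lower, against 26.9% of all tested genes. These were PHO5, PHO11, PHO3, PHO8 and DIA3. DIA3 passed the filter on low values only through its X2180 signal, so a difference was built into its test, and leaving it aside 4 of 6 were lower. PHM8 alone among the 7 was higher, against 20.4% of all tested genes, and PHO13 did not pass. In either direction, 47.2% of all tested genes passed. A call of lower with a difference of 1 or more on the log2 scale was made for 5 of the 7, or 4 of 6 leaving DIA3 aside. It was made for 4.88% of all tested genes. The median log2 difference, NBRC1950 minus X2180, was -2.01 over the 7 genes, DIA3 included, and -0.05 over all tested genes. The arrays of the strains did not overlap for any of the 7 genes, as was the case for 75.7% of all tested genes, so non-overlap by itself was common.

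**Figure D1:**
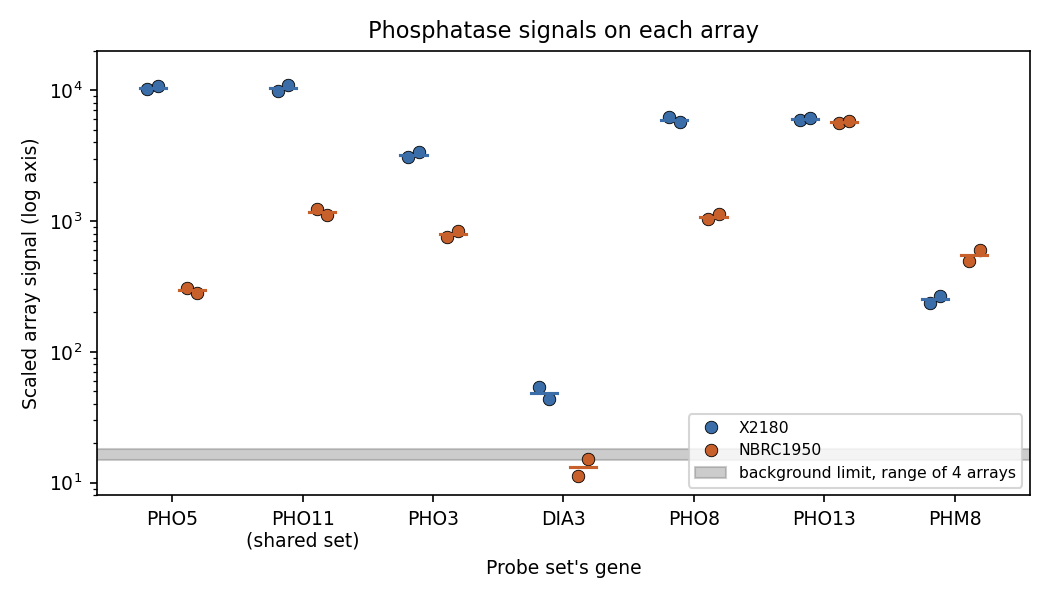
Signal of the 7 phosphatase probe sets on each array, on a log axis after scaling every array to the same median. Each point is 1 array, short lines are the mean of 2 arrays, and the grey band spans the background limits of the 4 arrays. PHO5 shows the widest gap between strains, PHO13 the narrowest, PHM8 is higher in NBRC1950, and the NBRC1950 points of DIA3 lie below their background limits.

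Signals are deposited intensities scaled to a common array median of 973.6, and the background limit of an array is the 90th percentile of its probe sets that name no S. cerevisiae gene. These limits were between 14.88 and 18.2. Each member was read by 1 probe set, so a difference in gene sequence under the probes and a difference in mRNA cannot be told apart. In RNA from a whole culture, fewer expressing cells and less RNA per cell cannot be told apart either. P-values measure the spread between 2 arrays of a strain, with the variance of each gene moderated across all genes. Signals of different probe sets were not set against each other as levels, since probes differ in brightness. The X2180 signals of PHO5 and PHO11 lay near those of other bright probe sets, such as IPP1 at 10560 and 10870 and PHO84 at 9786 and 10670. Whether such signals were near the upper limit of the arrays, where differences shrink, was not tested.

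PHO5, the main phosphate-repressible acid phosphatase, had the largest difference of the 7 genes. Its signal was 10120 and 10680 in X2180 and 310.1 and 279.6 in NBRC1950. Both X2180 arrays were high, and both NBRC1950 arrays were far lower but well above background. The log2 difference was -5.14 ± 0.08 (SE; limma adjusted p = 1.44e-08), or 35.3-fold lower in NBRC1950, with a 95% interval from -5.32 to -4.96. Within the strains the replicate arrays differed by 0.08 and -0.15 on the log2 scale. Among all 5332 tested genes, 24 had a more negative difference than PHO5.

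PHO11, the minor repressible acid phosphatase read by the shared probe set, followed with a difference of -3.15 ± 0.08 (SE; limma adjusted p = 2.14e-07), or 8.90-fold lower. Its signal was 9872 and 10960 in X2180 and 1225 and 1115 in NBRC1950. The NBRC1950 arrays thus kept a clear signal for PHO11, and the groups were far apart compared with the replicate differences of 0.15 and -0.14 on the log2 scale.

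PHO3, the acid phosphatase that frees thiamine from its phosphates, was also lower. Its signal was 3082 and 3343 in X2180 and 749.4 and 842 in NBRC1950. The difference was -2.01 ± 0.08 (SE; limma adjusted p = 2.43e-06), or 4.04-fold. The signal of this gene outside the phosphate response was thus lower as well, by less than that of PHO5 and PHO11. Its probe set lacks the suffix for several matching sequences, and whether it also reads mRNA of the related PHO5 was not tested. DIA3, a family member named for its effect on invasive growth, was dim in both strains. Its signal was 53.81 and 43.67 in X2180, above background, and 11.19 and 15.23 in NBRC1950, not above the limits of 14.88 and 16.58. With the scaling used here, DIA3 was therefore at least 3.09-fold lower in NBRC1950, a bound and not a measured ratio (limma adjusted p = 0.00206). The bound does not carry over to other scalings of the arrays. Its mean signal in NBRC1950, 13.21, was below the filter of 16.52, so its p-value adds no independent support. Its X2180 arrays differed by -0.30 and its NBRC1950 arrays by 0.44 on the log2 scale, the widest replicate spread of the 7 genes. With the plain test named in the study's methods, DIA3 had an adjusted p of 0.0794. Its fitted log2 difference was -1.15 with a pseudocount of 16 in place of the floor and -2.34 with the median background subtracted.

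PHO8, the repressible alkaline phosphatase of the vacuole, was 6218 and 5670 in X2180 and 1031 and 1124 in NBRC1950. Its difference was -2.46 ± 0.08 (SE; limma adjusted p = 6.30e-07), or 5.52-fold lower. The X2180 arrays lay well above the NBRC1950 arrays, and replicates differed by -0.13 and 0.12 on the log2 scale.

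The genes of the cell interior behaved in other ways. PHO13, a phosphatase of small metabolites that clears side products of glycolysis, was 5931 and 6136 in X2180 and 5575 and 5763 in NBRC1950. Its difference was -0.09 ± 0.06 (SE; limma adjusted p = 0.278), with a 95% interval from -0.24 to 0.06. The X2180 arrays lay slightly above the NBRC1950 arrays with this scaling, and the direction changed with the scaling. PHM8, which dephosphorylates lysophosphatidic acid and nucleoside monophosphates, was 237.7 and 268.8 in X2180 and 496.1 and 602 in NBRC1950. It was higher by 1.11 ± 0.13 (SE; limma adjusted p = 0.000376), or 2.16-fold, with a 95% interval from 0.82 to 1.41. PHM8 thus differed in the direction opposite to PHO5, PHO11 and PHO8, which belong to the same phosphate response. Its adjusted p was 0.0828 with the plain test of the methods.

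Ratios of 2 genes within an array do not change when the array is multiplied by a common factor, though quantile normalization can change them. In all, 9 such ratios were computed. The smallest two-sided exact permutation p that 2 arrays against 2 allow is 0.333, so they are given as values. The log2 ratio of PHO5 to PHO3 was 1.71 and 1.68 in X2180 and -1.27 and -1.59 in NBRC1950. The 2 neighbouring genes therefore changed unequally, by -3.13 between strain means. The log2 ratio of PHO5 to PHO11 was 0.04 and -0.04 in X2180 and -1.98 and -1.99 in NBRC1950, which again shows unequal change. Both X2180 signals are among the bright ones whose nearness to the upper limit of the arrays was not tested. The log2 ratio of PHO8 to PHO13 was 0.07 and -0.11 in X2180 and -2.44 and -2.36 in NBRC1950, and that of PHO3 to PHO13 was -0.94 and -0.88 against -2.90 and -2.78. The log2 ratio of PHM8 to PHO13 was -4.64 and -4.51 in X2180 and -3.49 and -3.26 in NBRC1950. SDT1 encodes a pyrimidine nucleotidase and is the closest relative of PHM8, and the log2 ratio of PHM8 to SDT1 was -3.33 and -3.11 in X2180 and -1.48 and -1.12 in NBRC1950. SDT1 itself was lower by -0.80 (limma adjusted p = 8.66e-05).

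The size of the differences depended on the scaling of the arrays. With arrays brought to a common median over every probe set on them, background ones included, the median gene shifted from -0.05 to 0.50. Calls of higher in NBRC1950 then made up 92.4% of all calls, against 43.1% with the scaling used here. The share was 70.5% with no further scaling, where the median gene was at 0.16, and 52.0% with quantile normalization. PHO5 ranged from -5.14 to -4.60 over these 4 scalings, PHO11 from -3.15 to -2.61, PHO8 from -2.46 to -1.92, PHO3 from -2.01 to -1.47, DIA3 from -1.89 to -1.19 and PHM8 from 1.11 to 1.66. The direction and the call of these 6 genes were the same under each of the 4. PHO13 was at -0.09, 0.12, 0.04 and 0.46 with the scaling used here, none, quantile normalization and scaling to all probe sets. It passed as higher with the last of these (limma adjusted p = 0.000103), where it lay at -0.04 relative to the median gene.

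**Figure D2:**
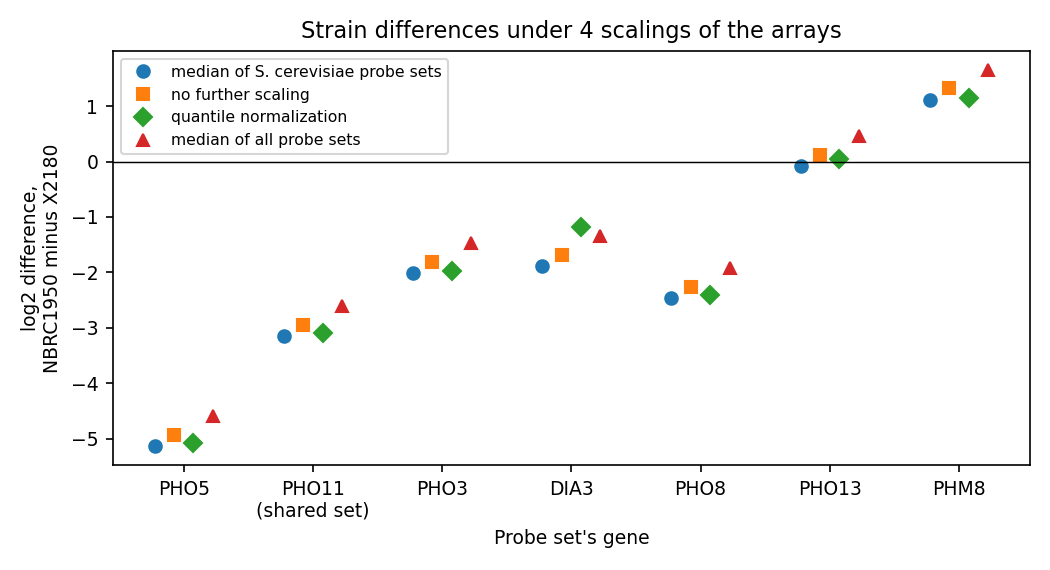
Log2 difference, NBRC1950 minus X2180, of the 7 phosphatase genes under 4 scalings of the arrays. Each symbol is 1 scaling. PHO5, PHO11, PHO3, DIA3 and PHO8 stay below 0, PHM8 stays above, and PHO13 takes either sign between -0.09 and 0.46.

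The other genes of phosphate signalling, uptake and storage were described from a list of 28. Of these, 26 had a probe set and 25 were tested: 14 were lower (56% against 26.9% of all tested genes), 5 higher (20% against 20.4%) and 6 did not pass, with a median difference of -0.27 against -0.05 over all tested genes. A lower call of 1 or more on the log2 scale was made for 7 of the 25, and for 4.88% of all tested genes. PHO89, a sodium-phosphate cotransporter, was 2457 and 2348 in X2180 and 5.087 and 3.885 in NBRC1950, below background on both arrays. With the scaling used here it was at least 153-fold lower (limma adjusted p = 2.85e-08). PHO89 too passed the filter only through X2180, so a difference was built into its test. It is counted among the 14 lower genes and among the 7. SPL2, which restrains low-affinity transport, was 6478 and 6899 against 77.81 and 66.56, a difference of -6.54. PHM6, of unknown function, was 2052 and 2172 against 55.42 and 68.3, a difference of -5.10. Beside them PHO5 stood at -5.14, close to PHM6, and the NBRC1950 arrays of PHO89 were the only ones of these genes below background.

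PHO84, the main high-affinity phosphate transporter and, like PHO5, a strong target of Pho4, was 9786 and 10670 in X2180 and 5169 and 5193 in NBRC1950, a difference of -0.98 (limma adjusted p = 3.88e-05). The genes of the vacuolar polyphosphate polymerase were lower by -1.46 for VTC3, -1.20 for VTC4, -0.91 for VTC2 and -0.53 for VTC1. PHO86, which helps Pho84 leave the endoplasmic reticulum, differed by -1.32, and GDE1, a glycerophosphocholine phosphodiesterase, by -0.88. The VTC1 call was lost with no further scaling (-0.33, limma adjusted p = 0.278), and with scaling to all probe sets VTC1 stood at 0.01. The low-affinity transporter PHO87 was higher by 0.64, while PHO90 (0.03) and PHO91 (-0.21) did not pass. GIT1, the transporter of glycerophosphoinositol, was higher by 0.45, and this call was lost without X2180 replicate 1 (limma adjusted p = 0.0981) or NBRC1950 replicate 2 (0.132). PHM7 was higher by 0.53, a call lost without either NBRC1950 array (0.127 without replicate 1 and 0.172 without replicate 2) and without X2180 replicate 1 (0.0898).

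Transcripts of the regulators went both ways. PHO81, the inhibitor of the kinase and itself a phosphate-responsive gene, was 2518 and 2301 in X2180 and 1125 and 1165 in NBRC1950, a difference of -1.07 (limma adjusted p = 3.29e-05). PHO4, the activator, was 959.6 and 1177 in X2180 and 1700 and 1750 in NBRC1950, higher by 0.70 (limma adjusted p = 0.00124). The activator transcript thus differed in the direction opposite to PHO5, PHO11 and PHO8. PHO2, its partner, was at -0.15 and did not pass. PHO80, the cyclin, was lower by -0.27 and PHO85, the kinase, higher by 0.27. The PHO80 call was lost without X2180 replicate 1 (limma adjusted p = 0.137), X2180 replicate 2 (0.101) or NBRC1950 replicate 1 (0.222), and the PHO85 call without NBRC1950 replicate 1 (0.0576) or replicate 2 (0.0633). With scaling to all probe sets PHO80 was at 0.27, and with no further scaling the calls of PHO80 (limma adjusted p = 0.863) and PHO85 (0.0646) were lost. VIP1, an inositol pyrophosphate kinase, was lower by -0.65, though not past the threshold with no further scaling (0.105) or with scaling to all probe sets (0.397), and KCS1, the other such kinase, was at 0.06. The polyphosphatases PPN1 (-0.07) and PPX1 (0.07) did not pass. PHO88, named SND3 in the reference gene table, was lower by -0.20, a call lost without NBRC1950 replicate 1 (0.281) or replicate 2 (0.281). It stood at 0.0061 with no further scaling and at 0.34 with scaling to all probe sets, and its call was lost with quantile normalization (0.127).

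**Figure D3:**
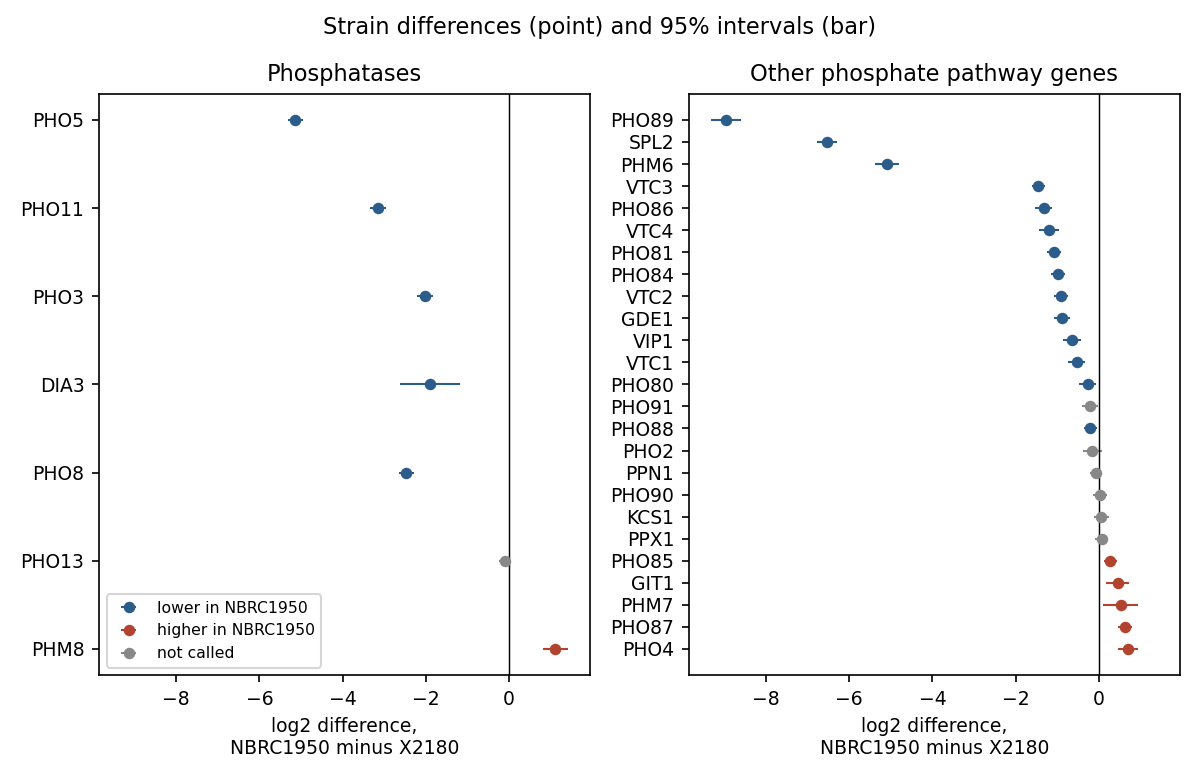
Log2 difference, NBRC1950 minus X2180, with its 95% interval from limma for the 7 phosphatase genes (left) and the 25 other tested phosphate pathway genes (right). Points are coloured by call, and those of DIA3 and PHO89 are fitted values for genes below background in NBRC1950. PHO5 lies beside PHM6, PHO11 lies between PHM6 and VTC3, and PHM8 lies to the right of every pathway gene shown.

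Other small-molecule phosphatases and pyrophosphatases were called about as often as all tested genes. Of 14 listed and tested, 4 were lower (28.6%, against 26.9% of all tested genes), 3 higher (21.4% against 20.4%) and 7 did not pass, with a median of -0.09 and a range from -0.80 to 0.67. SDT1 lay at the lower end and YND1, an apyrase of the Golgi, at the upper end. INM2, an inositol monophosphatase, was lower by -0.61, though not past the threshold with no further scaling (limma adjusted p = 0.146) or with scaling to all probe sets (0.652). No gene of this list was called with a difference of 1 or more.

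Genes of thiamine synthesis and uptake were set beside PHO3. Of 16 listed, 14 were tested: 5 were lower (35.7% against 26.9% of all tested genes), 2 higher (14.3% against 20.4%) and 7 did not pass, with a median of -0.17. THI4, which makes the thiazole part of thiamine and is strongly repressed by it, was 156.9 and 143.3 in X2180 and 396.7 and 460.7 in NBRC1950, higher by 1.51 (limma adjusted p = 7.86e-05). THI7, the thiamine permease, was lower by -0.61, though not with no further scaling (0.14) or scaling to all probe sets (0.635). THI72, a related permease, was higher by 0.88. SNZ3, read by a shared probe set, was 227.5 and 261.8 against 51.29 and 64.82, a difference of -2.08. PHO3 and THI4 therefore differed in opposite directions between the strains. The 5 lower thiamine genes differed in the same direction as PHO3 with the scaling used here. Among them THI6 (-0.23), THI22 (-0.33) and THI80 (-0.23) had small differences. Scaling to all probe sets moved the median gene to 0.50, so their direction depends on the scaling.

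Genes next to the phosphatases were read from the same arrays. The gene order is that of the R64 reference, which comes from the S288C lineage. Over the 8 phosphatase genes, the 3 annotated genes on each side gave 39 distinct neighbours, 33 of them tested. Of the 33, 10 were higher, 9 lower and 14 did not pass, with a median of 0.04. Among all tested genes 20.4% were higher and 26.9% lower. The 10 include YAR064W, which passed the filter only through NBRC1950. Around PHO3 and PHO5 the other neighbours stayed between -0.44 and 0.63: TIM12, a mitochondrial import protein next to PHO3, was higher by 0.44, and PBY1, next to PHO5, was at -0.44, or -0.23 with no further scaling, where its call was lost (limma adjusted p = 0.445), and 0.11 with scaling to all probe sets. Around PHO8 the 6 neighbours ranged from -0.29 to 0.57, with SNM1, an RNase MRP protein, at the upper end. Around PHO13 they ranged from -0.72, for AIM6, to 0.53. Around DIA3 the 4 tested neighbours ranged from -0.57 to 0.74, with GPD1, the glycerol 3-phosphate dehydrogenase, highest. Next to PHM8, 3 of 5 tested neighbours were also higher and 0 were lower, with EDC2, an activator of mRNA decapping, at 0.76 and HVG1 at 0.78.

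PHO11 and PHO12 lie near chromosome ends, and some of their neighbours had larger differences. PHO11 is the last annotated gene on the right of chromosome I. YAR068W, of unknown function and next to it, was 323.6 and 308.8 in X2180 and 9793 and 10220 in NBRC1950, higher by 4.98 (limma adjusted p = 1.25e-08), whereas PHO11 was lower. YAR064W, with a shared probe set and below background in X2180, was at least 12.7-fold higher with the scaling used here. It passed the filter only through NBRC1950, so a difference was built into its test. YAR066W, also with a shared probe set, was lower by -0.98, a call lost without X2180 replicate 1 (0.0635). PHO12 has 3 annotated genes between it and the right end of chromosome VIII. The first of these, IMD2, read by a shared probe set, was at -0.06 and did not pass (limma adjusted p = 0.536), and the others were not tested. On the other side of PHO12, YHR214C-E was lower by -2.25 and YHR214C-D by -1.74. The signal of YHR214C-E on NBRC1950 replicate 2, 14.84, was not above the background limit of that array. With the plain t-test of the methods YHR214C-E (adjusted p = 0.0611) and YHR214C-D (0.124) missed the threshold. Whether NBRC1950 has this gene order was not tested.

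**Figure D4:**
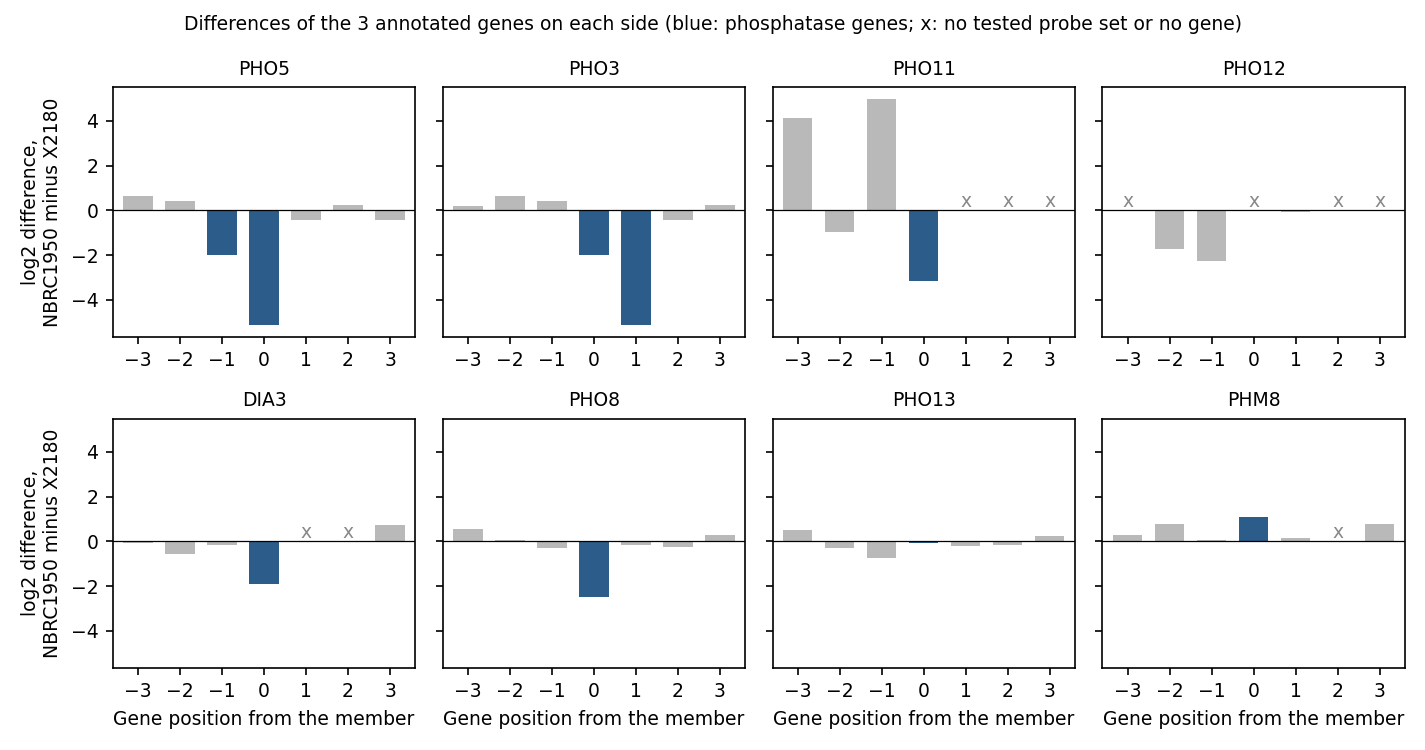
Log2 difference, NBRC1950 minus X2180, of each phosphatase gene at position 0 and of the 3 annotated genes on each side in the order of the R64 reference. Blue bars are phosphatase genes, grey bars are other genes, and a cross marks a position with no tested probe set or no gene. Phosphatase genes aside, the neighbours of PHO5, PHO3, PHO8, PHO13 and DIA3 stay between -0.72 and 0.74, while those of PHO11 reach 4.98.

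For the 6 genes with a difference of 1 or more, the genes with the most similar profile over the 4 arrays were listed, by Euclidean distance between log2 values centred on each gene's mean. A small distance means a similar difference and a similar replicate spread. FET4, a low-affinity iron transporter, lay nearest to PHO3 at a distance of 0.05, followed by LYS20, a homocitrate synthase, at 0.06. The nearest gene to PHO5 was YGR109W-B, a reading frame of a Ty element, at 0.15, followed by IME1, the master regulator of meiosis, at 0.24. Both were below background in NBRC1950, unlike PHO5, and YGR109W-B was set to the floor there, so that its distance comes from the floor. The same holds for YLR156W, with a shared probe set, listed nearest to PHO11. The gene listed after it, YCL049C, was above background on each array and lay at a distance of 0.23. The nearest to PHO8 was PRM5 at 0.18, to DIA3 GEX1, with a shared probe set, at 0.19, and to PHM8 MNN4, a regulator of mannosylphosphate addition, at 0.11. In NBRC1950 DIA3 was not above background and GEX1, at 15.79 and 20.1, was close to it, so their similarity there is of signals near background. None of the genes listed here as nearest is in the phosphate pathway list. That list holds only 25 of the 5332 tested genes, so this absence says little.

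Some other measures moved with the strains. Of 16 listed genes of glucose-starved and post-diauxic cells, 6 were higher in NBRC1950 (37.5% against 20.4% of all tested genes), 2 were lower (12.5% against 26.9%) and 8 did not pass, with a median of 0.32 and a range from -1.05 to 2.85. HSP26, a small heat shock protein, was 79.53 and 102.5 in X2180 and 648.7 and 652 in NBRC1950, HSP30 was higher by 1.09, ICL1, the isocitrate lyase, by 1.13 and SPI1, a cell wall protein of stationary phase, by 0.68. MLS1, the malate synthase, was higher by 2.33, a call lost without X2180 replicate 1 (limma adjusted p = 0.0826) or replicate 2 (0.0531). Its difference was 3.06 without NBRC1950 replicate 1 and 1.60 without NBRC1950 replicate 2. The 2 lower genes were SPG5, by -0.40 (limma adjusted p = 0.00338), and SPG4, which set the lower end of the range. SPG4 had an NBRC1950 mean of 13.61 and passed the filter of 16.52 only through X2180, so a difference was built into its test. The 8 genes that did not pass went both ways, such as ADH2 at -0.34 and HSP12 at 0.49. The 17 probe sets for ribosomal RNA were all lower in NBRC1950, by -1.10 ± 0.32 (SD over probe sets, not over arrays). Within X2180 they differed by -0.39 on average, replicate 2 minus replicate 1. For the control transcript SRB4, the 3' signal exceeded the 5' signal by 2.05 and 2.18 on the log2 scale in X2180 and by 2.66 and 2.83 in NBRC1950. For SPT15 it did so by 1.08 and 1.18 against 1.10 and 1.09. Haploid-specific genes mark a single mating type or both haploid types. Of 14 tested, with signals between 4.458 and 396.2, 7 were lower (50% against 26.9% of all tested genes) and 1 was higher (7.14% against 20.4%). STE3, among the lower genes, had an NBRC1950 mean of 12.13 and passed the filter of 16.52 only through X2180. STE18, the higher gene, had an X2180 mean of 8.425 and passed only through NBRC1950. A difference was thus built into both of these tests. The part of culture state, RNA quality or cell type in the phosphatase differences was not tested.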

How the data were processed

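Poly(A) RNA of 4 cultures was measured on 1-colour arrays. Per the labels, GCOS is the tool the submitters name, with no settings stated. The authors deposited linear intensity values, 1 per probe set and array. The design text's later divisions in GeneSpring were not visible in them. With 2 arrays per strain, precision is limited by their number.

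The array's annotation, matched by gene identifier to the R64 table, named 1 S. cerevisiae gene for 5498 of 10928 probe sets, and the brightest probe set stood for a gene. Another 5217 probe sets measured background and 213 were controls. Arrays were scaled to a common median of the S. cerevisiae probe sets, floored at 4.567 (the median background) and converted to log2. Genes with a mean above 16.52, the 90th background percentile, were tested with limma 3.58.1 in R 4.3.3 (eBayes with an intensity trend, no covariates), with Benjamini-Hochberg adjustment over all 5332. The procedure was tested on simulated data.

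The genes named are the members, genes of the listed pathways, the 3 neighbours on each side and the nearest profiles. Members, lists and rules were chosen with earlier results of these data known. Alternatives covered scaling, floor, background, filter, spread model, the methods' own test, probe-set choice, replicate block and leaving out each array. No gene sequences were used here.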

Additional observations from a re-analysis of the deposited data

How the results depend on the processing

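Precision is limited by 2 arrays per strain and, for DIA3, by signal near background. PHO5, PHO11, PHO3 and PHO8 kept their direction and call under each of the 16 alternatives, and between 4 and 5 members were lower. DIA3 was not tested with the 95th percentile filter. With the methods' t-test and Benjamini-Hochberg adjustment DIA3 (-1.89, adjusted p = 0.0794) and PHM8 (1.11, 0.0828) missed the threshold, 0 members were higher, 535 genes of all tested were called in place of 2518, and 7 pathway genes were lower and 1 higher. At the methods' unadjusted threshold that test called 2078 genes and 6 members. With no further scaling 1315 genes were called, and scaled to all probe sets 4300, with 2 members (PHO13 and PHM8) and 13 pathway genes higher. The pathway genes called higher numbered between 2 and 5 with 1 array left out: 3 without X2180 replicate 1, 3 without NBRC1950 replicate 1 and 2 without NBRC1950 replicate 2, against 5 in all.

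Some small differences changed sign. Scaled to all probe sets, PHO13 was at 0.46, PHO91 at 0.33, PHO88 (SND3) at 0.34, VTC1 at 0.011, PHO80 at 0.27, PHO2 at 0.39, PPN1 at 0.48, IMD2 at 0.49 and PBY1 at 0.11. With no further scaling PHO13 was at 0.12, SND3 at 0.0061, PHO2 at 0.055, IMD2 at 0.15 and PPN1 at 0.14, and with quantile normalization PHO13 was at 0.042 and IMD2 at 0.0044. With 1 array left out, PHO90 ranged from -0.049 (without NBRC1950 replicate 2) to 0.10, at -0.0095 without X2180 replicate 2, and KCS1 from -0.0087 (without X2180 replicate 1) to 0.13, and IMD2 from -0.13 (without NBRC1950 replicate 1) to 0.0095 (without NBRC1950 replicate 2). With the replicate number as a block, 2684 genes were called, no call of a member changed, PHO91 (adjusted p = 0.0346) passed, and SND3 (0.0588) and PHM7 (0.0658) did not. The same-numbered arrays' deviations correlated at 0.07 across genes, and the labels do not tie the numbers to shared cultures. The causes of these shifts were not tested.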
